A study of Arabidopsis thaliana with 12 samples.

Results

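Ribosome-captured RNA was set against total RNA of the same extracts, from Arabidopsis thaliana seedlings that had been kept dark for 1 h and then given 10 min of light. The comparison rests on 4 of the 12 arrays of the series, which are captured and total RNA of 2 extracts, and on all 22746 probe sets of the array that are not controls. Every seedling of the series, controls included, carried the transgene 35S:HF-RPL18 in the Col-0 background, which gives the ribosomal protein RPL18B a His6-FLAG tag. Ribosomes with this tag were pulled down on anti-FLAG beads from a clarified extract that held cycloheximide and chloramphenicol, and total RNA was taken from the same extract before the pull-down. The groups used here are captured and total RNA after reillumination (10 min of light following 1 h of darkness), and the same RNA pools after 1 h of darkness alone and after 1 h of continued light, with 2 arrays each. Seedlings were 14 days old and whole, treatments were started midway through the daily light period, and the 2 arrays of a group came from independent biological replicate experiments. The near-constitutive Cauliflower Mosaic Virus 35S promoter drives the tag, so the capture sees mRNAs of the cells in which this promoter is active. In whole seedlings, fewer cells of a type and less RNA per cell cannot be told apart. RPL18B itself had no probe set tied to it alone, so the tagged gene is not analysed here.

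Cytosolic ribosomes are built from nuclear-encoded proteins, and RPL18B belongs to their large subunit. Chloroplasts and mitochondria translate their own mRNAs inside the organelle on ribosomes of a bacterial type, which hold no RPL18B. An mRNA that is bound by many ribosomes is captured more readily than an mRNA that is not being translated, so the ratio of captured to total RNA is commonly read as the ribosome loading of an mRNA relative to other mRNAs. In plants, light and darkness are known to act on translation within minutes to hours, with large effects on mRNAs for ribosomal and photosynthetic proteins.

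Values are log2 signals after RMA normalization, and a ratio is the captured minus the total log2 value of 1 extract. The ± gives the fit's standard error (n = 2 extracts). All p-values come from limma with Benjamini-Hochberg adjustment across the 22746 probe sets, and calls were made at an adjusted p under 0.05. The 2 captured arrays correlated at r = 0.994 and the 2 total arrays at 0.995 over probe sets, while captured and total RNA of an extract correlated at 0.974 in both extracts. Shoot and root were both present in the seedlings: in total RNA the photosystem mRNA PSAE-1 had 13.54 and 13.55, and the root glucosidase mRNA PYK10 13.34 and 13.23.

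After reillumination, 3906 probe sets were higher and 4220 lower in captured than in total RNA. That is 35.7% of the 22746 tested, with 17.2% called higher and 18.6% called lower. Without reillumination replicate 1 the counts were 2369 higher and 2698 lower, and without replicate 2 they were 2446 and 2677. Differences of at least 2-fold were fewer: 263 probe sets (1.16%) were higher and 559 (2.46%) lower by that much. RMA makes the arrays' distributions alike, so each ratio is relative to the rest of the array. Bright nuclear probe sets had medians 0.09 higher in captured RNA in both extracts, and with every array centred on these, 3004 probe sets were called higher and 5429 lower, which changes the share of calls that were higher from 48.1% to 35.6%. The direction of small ratios thus depends on the scaling, and ratios of a gene group are given beside the median of 0.02 over all probe sets.

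The mRNAs encoded in the chloroplast stood lowest. All 69 measured chloroplast transcripts were lower in captured RNA, against 18.6% of all probe sets, with a median ratio of -4.20 and a range from -5.69 to -2.31. The extracts' own medians were -4.05 in replicate 1 and -4.25 in replicate 2. In each of the 69 transcripts both captured arrays lay below both total arrays. For 6 of the 69, both captured signals lay below the lower quartile of their array, which was between log2 4.08 and 4.17 over the 4 arrays, so for these the size of the difference may be limited by the dimmest signal an array can show.

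The largest ratios belonged to transcripts of different functions. The mRNA of rpl22, a protein of the chloroplast ribosome's large subunit, had 5.22 and 5.29 in captured RNA against 10.87 and 11.03 in total RNA, which is 51.6-fold lower (-5.69 ± 0.14, adjusted p = 8.8e-12). The captured values lay within 0.1 of each other and far under the total values. The mRNA of ndhE, a subunit of the chloroplast NADH dehydrogenase-like complex, had 3.73 and 4.21 in captured against 9.83 and 9.43 in total RNA (-5.66 ± 0.20, adjusted p = 1.1e-10). That of ndhG, of the same complex, had 3.66 and 4.04 in captured against 9.64 and 9.17 in total RNA (-5.56 ± 0.25, adjusted p = 1.3e-09). For accD, a subunit of the plastid acetyl-CoA carboxylase that starts fatty acid synthesis, the values were 4.46 and 4.13 in captured against 9.63 and 10.01 in total RNA (-5.52 ± 0.25, adjusted p = 1.3e-09). In these 3 the captured signals were near or under the lower quartile of the array.

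**Figure D1:**
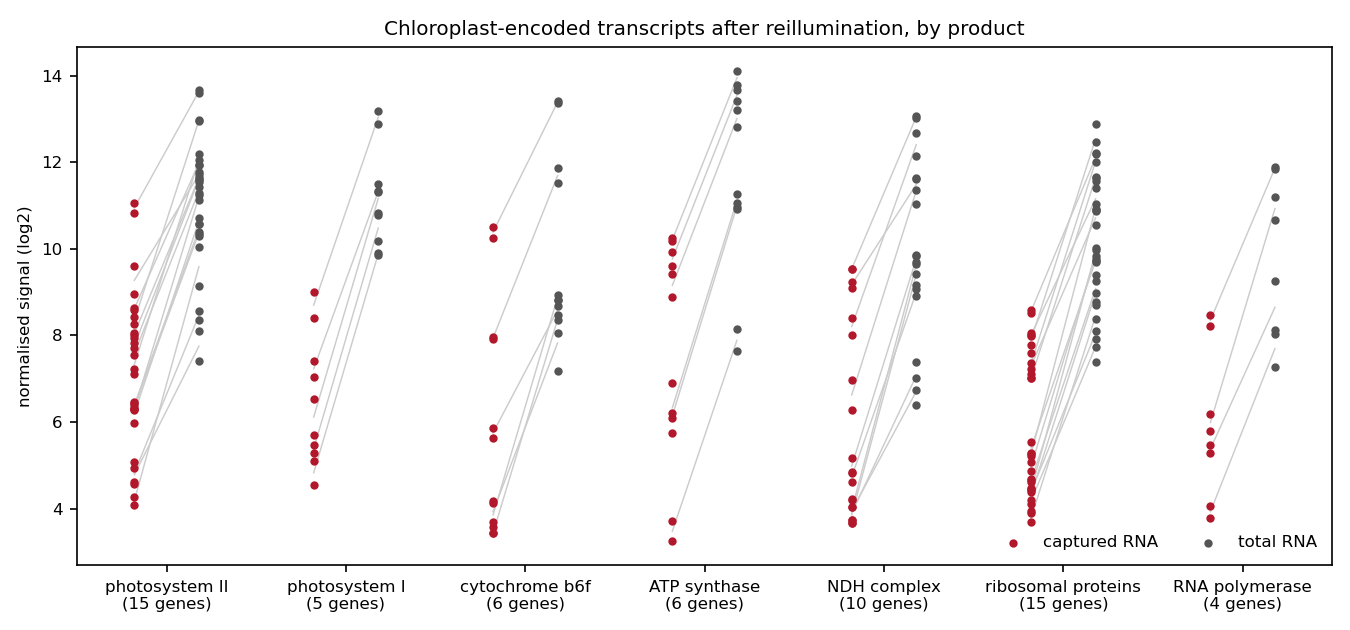
Normalised log2 signal of chloroplast-encoded transcripts after reillumination, grouped by the complex their products belong to. Red points are the 2 captured arrays, grey points the 2 total arrays, and a line joins the means of a transcript. In each group the captured signals lie below the total signals of the same transcript, and the median ratio lies between -5.05 (photosystem I) and -3.64 (RNA polymerase).

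By complex, median ratios were -5.05 for the 5 photosystem I transcripts, -4.64 for the 15 of the chloroplast ribosome, -4.23 for the 10 of the NADH dehydrogenase-like complex, -4.13 for the 6 of ATP synthase, -3.84 for the 15 of photosystem II, -3.83 for the 6 of cytochrome b6f and -3.64 for the 4 of the chloroplast RNA polymerase. Every complex with 10 or more transcripts spanned over 2 log2 units, so the complexes overlapped. The transcript of psbA, the photosystem II core protein D1, had 8.06 and 8.02 in captured against 11.55 and 11.73 in total RNA (-3.60 ± 0.13, adjusted p = 7.5e-11). The transcript of rbcL, the large subunit of the CO2-fixing enzyme Rubisco, had 6.51 and 5.81 in captured against 9.60 and 9.83 in total RNA (-3.55 ± 0.23, adjusted p = 7.0e-08). These signals were well above the lower quartile of the array in both pools. The smallest ratio was that of ndhC, at -2.31 ± 0.12, with 9.25 and 9.10 in captured against 11.36 and 11.61 in total RNA.

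Transcripts encoded in the mitochondrion were lower as well, by smaller amounts. Of the 16 measured, 12 were lower in captured RNA and none was higher, with a median of -0.72. The extracts' medians were -0.80 in replicate 1 and -0.64 in replicate 2. For nad4, a subunit of respiratory complex I, the captured values of 4.99 and 4.99 stood against 7.95 and 8.29 in total RNA (-3.13 ± 0.15, adjusted p = 2.8e-09). The complex I subunit nad1 had 5.12 and 4.60 in captured against 6.84 and 6.94 in total RNA (-2.03 ± 0.14, adjusted p = 2.0e-07). These values come from 1 of 7 nad1 probe sets, of which 5 were called and whose ratios ran from -2.03 to 0.17. The cytochrome biogenesis transcript ccmFN1 had 5.43 and 5.34 in captured against 7.04 and 7.77 in total RNA (-2.02 ± 0.22, adjusted p = 1.3e-05). The complex I subunit nad9 had 3.80 and 4.16 in captured against 5.67 and 5.72 in total RNA (-1.72 ± 0.12, adjusted p = 1.4e-07). Of the 4 transcripts that were not called, matR had a ratio of -0.34 (adjusted p = 0.0501), and ccmFN2, nad2 and nad7 had ratios of -0.04, 0.05 and 0.11. For 6 of the 16 transcripts both captured signals lay below the lower quartile of the array, and for 1 both total signals did, so a dim signal bounds these ratios. With probe sets below a mean of log2 6 left out, 4 of the 16 transcripts remained, with a median of -2.03. That mean takes in both pools, so a transcript dim in captured RNA can pass through a high total signal. The value of -2.03 therefore does not describe the 16 transcripts.

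Among nuclear genes, 2360 of the 13264 with a probe set of their own were higher in captured RNA (17.8%) and 1855 were lower (14.0%). The level of a gene is the higher of its captured and total means after reillumination, so it draws on the same values as the ratio. The 10 largest rises among genes with a level of at least log2 7 were between 2.80-fold and 3.45-fold. Some of these genes reached that level in captured RNA alone. For AT1G24575 the captured values were 7.62 and 8.24 against 6.00 and 6.29 in total RNA (1.79 ± 0.12, adjusted p = 1.5e-07). LEA18, a late embryogenesis abundant protein of the kind that accumulates in drying seeds and stressed tissue, had 8.38 and 7.94 in captured against 6.92 and 6.07 in total RNA (1.67 ± 0.14, adjusted p = 1.3e-06). AtLEA4-1, of the same class, had 7.29 and 6.77 in captured against 5.71 and 5.28 in total RNA (1.54 ± 0.15, adjusted p = 6.4e-06). In LEA18 and AtLEA4-1 replicate 1 was higher than replicate 2 in both pools, and the ratios of the extracts were 1.46 and 1.87 for LEA18 and 1.58 and 1.49 for AtLEA4-1. The other 7 are loci to which the gene table gives no name: AT4G09890 had a ratio of 1.59, AT1G67860 1.53, AT1G05340 1.52, AT1G65500 1.51, AT3G02480 1.50, and AT4G14020 and AT5G52750 1.49 each. In all 10 genes both captured arrays lay above both total arrays, and the lowest ratio among them was 1.35 in darkness and 1.44 in light. The genes are short: 8 of the 10 span under 1000 bp of the genome in the TAIR10.1 gene table, and the others, AT1G05340 and AT5G52750, span 1140 and 1037 bp.

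The 10 largest falls among nuclear genes of that level were between 4.82-fold and 9.16-fold. All 10 reached the level through total RNA, with captured means below it, so the filter was not neutral to the ratio. AT2G07741 had 4.78 and 4.95 in captured against 8.48 and 7.63 in total RNA (-3.19 ± 0.18, adjusted p = 1.7e-08), and AT2G07718 averaged 4.74 in captured against 7.04 in total RNA (-2.30 ± 0.15, adjusted p = 1.2e-07). Both loci lie where chromosome 2 carries a copy of mitochondrial DNA, and both were read by probe sets named as matching several transcripts, so their signal cannot be assigned to the nuclear copy. AT2G25590 had 4.23 and 4.62 in captured against 7.45 and 7.38 in total RNA (-2.99 ± 0.14, adjusted p = 2.0e-09). TPS-CIN, a terpene synthase that makes the volatile 1,8-cineole, had 4.87 and 4.47 in captured against 7.50 and 6.89 in total RNA (-2.53 ± 0.11, adjusted p = 1.2e-09). The captured signals of AT4G26010, at 4.01 and 4.15, lay at the lower quartile of the array, against 7.07 and 7.02 in total RNA (-2.96 ± 0.13, adjusted p = 9.2e-10). The remaining 5 were AT5G25560 (-2.57), AT1G65370 (-2.53), AT3G01190 (-2.39), AT1G30870 (-2.31) and AT3G57470 (-2.27). All 10 were lower by at least 2.09 on the log2 scale in darkness and in light too, and none had overlapping pools.

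**Figure D2:**
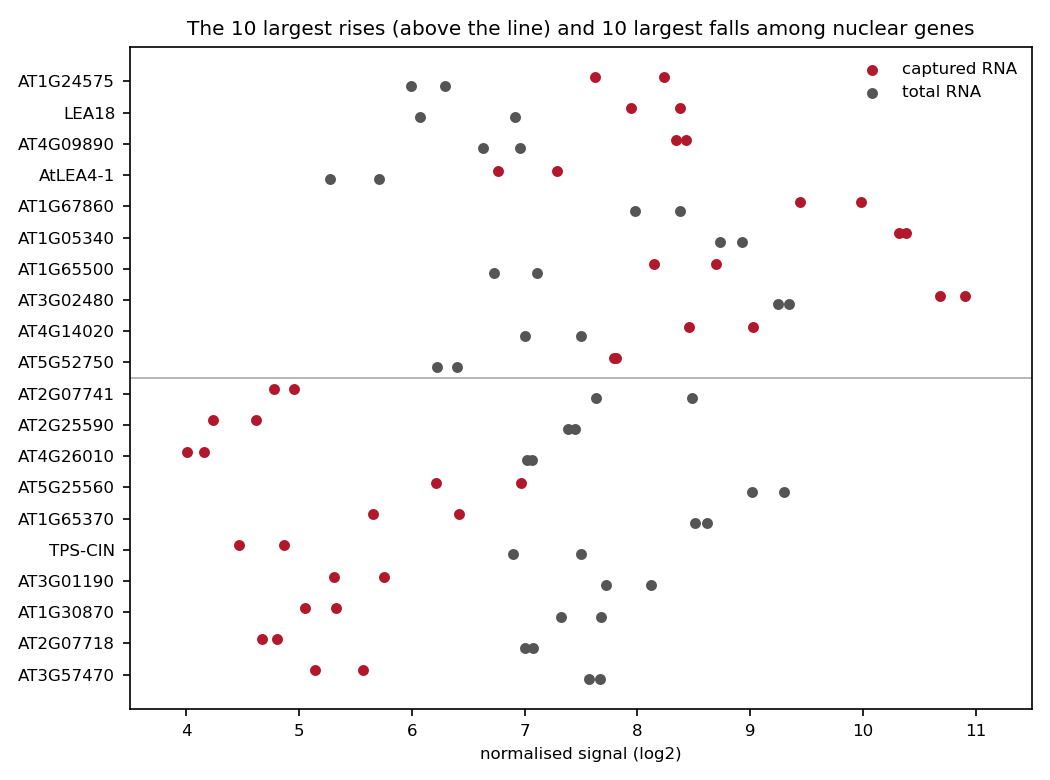
Normalised log2 signal (horizontal axis) of the 20 nuclear genes with the largest ratios after reillumination, 10 higher and 10 lower in captured RNA. Red points are the 2 captured arrays and grey points the 2 total arrays of each gene. The pools do not overlap in any of the 20, and the captured signals of several genes below the line lie between 4 and 5, near the lower quartile of the arrays.

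Among bright nuclear protein-coding genes the ratio fell with the span of the gene, measured from start to end with introns in the TAIR10.1 table. This is given as a description across the 4783 such genes with a level of at least log2 7, which share the same 4 arrays. A gene could reach that level in either pool, so a large ratio could itself bring a gene in. The median ratio was 0.72 for the 282 genes under 1000 bp, 0.41 for the 1619 from 1000 to under 2000 bp, 0.03 for the 1554 from 2000 to under 3000 bp, -0.26 for the 1069 from 3000 to under 5000 bp and -0.61 for the 259 of 5000 bp and over. In the shortest class 79.4% of genes were higher and 3.2% lower in captured RNA, and in the longest class 1.5% were higher and 77.6% lower, against 33.6% higher and 22.2% lower over all 4783. Both extracts showed this: the shortest class had a median of 0.69 in replicate 1 and 0.78 in replicate 2, and the longest class -0.60 and -0.63. Among genes with a level of at least log2 9 the medians were 0.78 for the 120 shortest and -0.61 for the 34 longest. Over the 12262 genes of all levels the order did not hold at the short end: the median was 0.12 under 1000 bp (26.6% higher), 0.16 from 1000 to under 2000 bp (31.4% higher) and -0.41 at 5000 bp and over, and the gap between the shortest and longest class was 0.54, against 1.34 for the bright genes. Span stands for the length of the mRNA only in part, since it counts introns.

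The slope was steeper in the extracts of reillumination than in those of darkness. The shortest minus the longest class median was 1.29 and 1.41 after reillumination, 1.10 and 0.61 in darkness, and 1.42 and 1.54 in light. The median ratio of the longest class was -0.60 and -0.63 after reillumination, -0.41 and -0.20 in darkness, and -0.65 and -0.68 in light. The 2 dark extracts differ from each other in this more than those of the other conditions do. As signs of RNA quality, the log2 signal of the 3′ over the 5′ control probe set was 3.59 and 3.79 in captured against 4.17 and 3.72 in total RNA after reillumination for actin, 1.11 and 1.39 against 0.98 and 1.05 for GAPDH, and 1.33 and 1.44 against 1.59 and 1.55 for ubiquitin. The captured minus total difference of this measure for GAPDH was 0.24 after reillumination, -0.16 in darkness and 0.22 in light. In darkness the extracts had 0.90 and 1.02 in captured against 0.98 and 1.25 in total RNA. The light extracts differed from each other, with 0.92 and 1.33 in captured against 0.92 and 0.89 in total RNA. The same difference was -0.26, -0.16 and -0.70 for actin and -0.19, -0.26 and -0.09 for ubiquitin, for reillumination, darkness and light in that order. The captured minus total signal of 25S rRNA was -0.73, -1.13 and -0.33, with a wide spread between extracts. In light 25S rRNA had 6.82 and 6.65 in captured against 6.31 and 7.82 in total RNA, so its sign differed between the extracts. After reillumination it had 6.36 and 6.34 in captured against 6.67 and 7.51 in total RNA. The part of RNA quality in the slope was not tested.

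**Figure D3:**
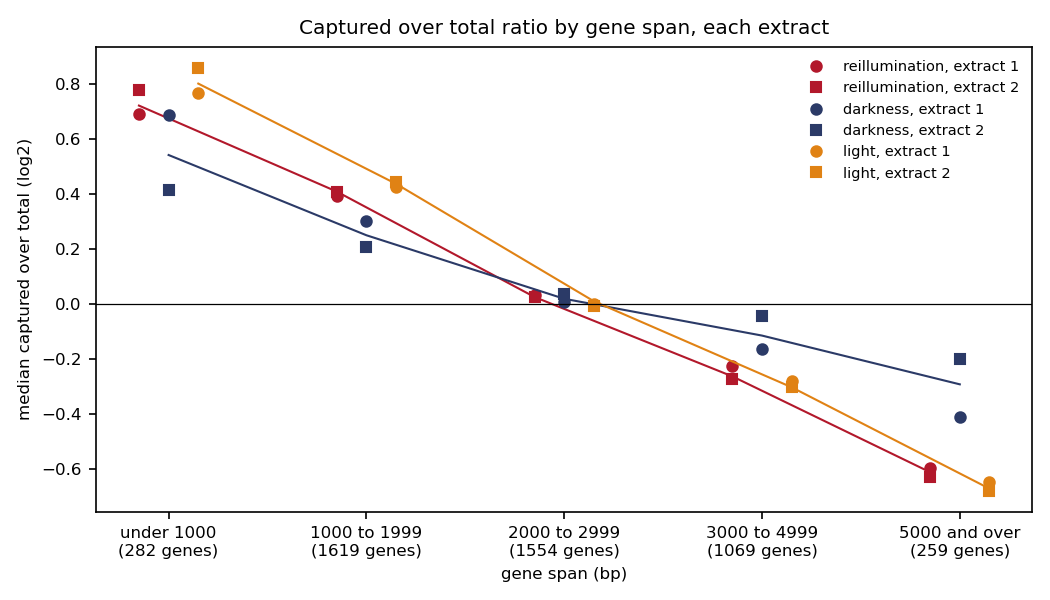
Median captured over total ratio (log2, vertical axis) of nuclear protein-coding genes in 5 classes of gene span, for each of the 6 extracts. Points are extracts and lines join the medians over the mean of both extracts of a condition. After reillumination the line runs from 0.72 in the shortest to -0.61 in the longest class, and in darkness from 0.54 to -0.29.

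Members of some gene lists lay on both sides, and the part of gene span in this was not tested. Of 12 measured subunits of the nuclear RNA polymerases, 6 were higher and 4 lower in captured RNA. The small subunits NRPB6B, NRPB9B and NRPB12 were higher, at 1.23 ± 0.13 (8.87 and 8.83 in captured against 7.49 and 7.75 in total RNA), 1.23 ± 0.15 and 1.04 ± 0.13, with adjusted p between 1.1e-05 and 4.1e-05. The large, catalytic subunits were lower: NRPA2 of RNA polymerase I had 6.06 and 6.14 in captured against 7.06 and 7.23 in total RNA (-1.05 ± 0.12, adjusted p = 1.4e-05). NRPC1 and NRPC2 of RNA polymerase III had ratios of -0.78 and -0.76, and NRPA1 had -0.60. The genes of the 4 lower subunits span 7818 to 11049 bp, and those of NRPB6B, NRPB9B and NRPB12 span 1406 to 1898 bp. Nuclear genes of mitochondrial respiration were split too, with 2 higher and 2 lower of 6. CYTC-2, which encodes the small electron carrier cytochrome c, had 9.04 and 9.22 in captured against 7.95 and 8.16 in total RNA (1.08 ± 0.13, adjusted p = 2.2e-05), and CYTC-1 had a ratio of 0.53 ± 0.12. SDH1-1, the flavoprotein subunit of succinate dehydrogenase, had 7.51 and 6.88 in captured against 8.54 and 8.29 in total RNA (-1.21 ± 0.13, adjusted p = 1.2e-05).

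Several nuclear gene lists had calls mostly on the higher side, to be read against 17.2% of all probe sets called higher. All 9 measured members of a list of 33 core histone loci were higher, with a median of 0.68 (0.65 and 0.70 in the extracts) beside 0.02 over all probe sets. HTB11, an H2B histone, had 9.05 and 9.60 in captured against 8.31 and 8.54 in total RNA (0.90 ± 0.14, adjusted p = 2.0e-04), and HTB2, HTB1 and HTB4 had ratios of 0.82, 0.62 and 0.55. All 6 LSM proteins, which form rings that act in mRNA decapping and splicing, were higher, with a median of 0.75. LSM6A had 8.66 and 8.75 in captured against 7.76 and 7.83 in total RNA (0.91 ± 0.11, adjusted p = 3.2e-05), and LSM6B had a ratio of 0.88. All 7 ATG8 proteins, ubiquitin-like proteins that coat autophagosome membranes, were higher with a median of 0.73. ATG8G had 8.09 and 8.25 in captured against 7.13 and 6.90 in total RNA (1.15 ± 0.12, adjusted p = 9.3e-06), and the smallest ratio was that of ATG8B at 0.31 ± 0.11 (adjusted p = 0.044), a call that was lost with the arrays centred. Of 10 VPS proteins, most of which serve the sorting of membrane cargo to the vacuole, 5 were higher and none lower, led by VPS60.2 at 1.05 ± 0.12. Of 11 PRA1 family members 7 were higher and none lower. Of 12 ubiquitin-conjugating enzymes 6 were higher, with UBC16 at 0.88 ± 0.11, and 1 was lower, UBC28, with 11.44 and 11.61 in captured against 12.18 and 12.14 in total RNA (-0.63 ± 0.12, adjusted p = 7.1e-04). Of 5 plant defensins, small secreted antimicrobial proteins, 4 were higher, led by PDF1.4 at 1.33 ± 0.16, and PDF2.5 was lower at -0.79 ± 0.21. Genes of the histone, PRA1 and defensin lists had median spans of 853, 1016 and 734 bp. Relative to the median ratio of bright nuclear genes in the same class of span, the list medians were 0.14 for histones, 0.34 for LSM proteins, 0.37 for ATG8 proteins and 0.02 for the PRA1 family.

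mRNAs of rapid stress regulators were higher as well. STZ, a zinc finger repressor induced by many stresses, had 8.48 and 8.68 in captured against 7.48 and 7.67 in total RNA (1.01 ± 0.11, adjusted p = 1.1e-05). The calmodulin-like CML38 had 7.76 and 8.12 in captured against 6.81 and 7.09 in total RNA (0.99 ± 0.15, adjusted p = 1.9e-04). WRKY22, a transcription factor of the defence response, had 7.94 and 7.97 in captured against 7.15 and 7.29 in total RNA (0.74 ± 0.15, adjusted p = 0.0015). These are all 3 measured members of a list of 18, and each ratio was of the same sign in darkness and in light. Relative to their span class their median was 0.58.

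Other lists had calls mostly on the lower side, to be read against 18.6% of all probe sets called lower. All 8 measured aldehyde dehydrogenases, which oxidise aldehydes to acids, were lower, with a median of -0.38, and ALDH6B2 had 10.28 and 10.55 in captured against 11.18 and 11.45 in total RNA (-0.90 ± 0.11, adjusted p = 4.0e-05). Of 6 exocyst subunits, which tether secretory vesicles to the plasma membrane, 5 were lower. SEC10 had 7.51 and 7.47 in captured against 8.39 and 8.35 in total RNA (-0.88 ± 0.11, adjusted p = 4.4e-05), SEC5A had -0.83, and the dim SEC5B had -0.15 (adjusted p = 0.42). Of 9 subtilases, secreted proteases, 6 were lower and none higher, led by SBT4.12 with 6.00 and 6.17 in captured against 7.64 and 7.71 in total RNA (-1.59 ± 0.11, adjusted p = 2.0e-07). Of 22 trichome birefringence-like proteins, which add acetyl groups to cell wall polymers, 9 were lower and 1 higher. The 2 measured starch breakdown genes were both lower: the phosphoglucan, water dikinase PWD (AT5G26570) had a ratio of -0.86 ± 0.11 and the disproportionating enzyme DPE1 -0.78 ± 0.11. Exocyst and aldehyde dehydrogenase genes had median spans of 6346 and 4007 bp, and relative to their span class these 2 lists had medians of -0.16 and -0.19. Without reillumination replicate 1, 2 aldehyde dehydrogenases, 4 exocyst subunits and 3 trichome birefringence-like proteins were still called lower, and without replicate 2 the numbers were 3, 3 and 7.

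**Figure D4:**
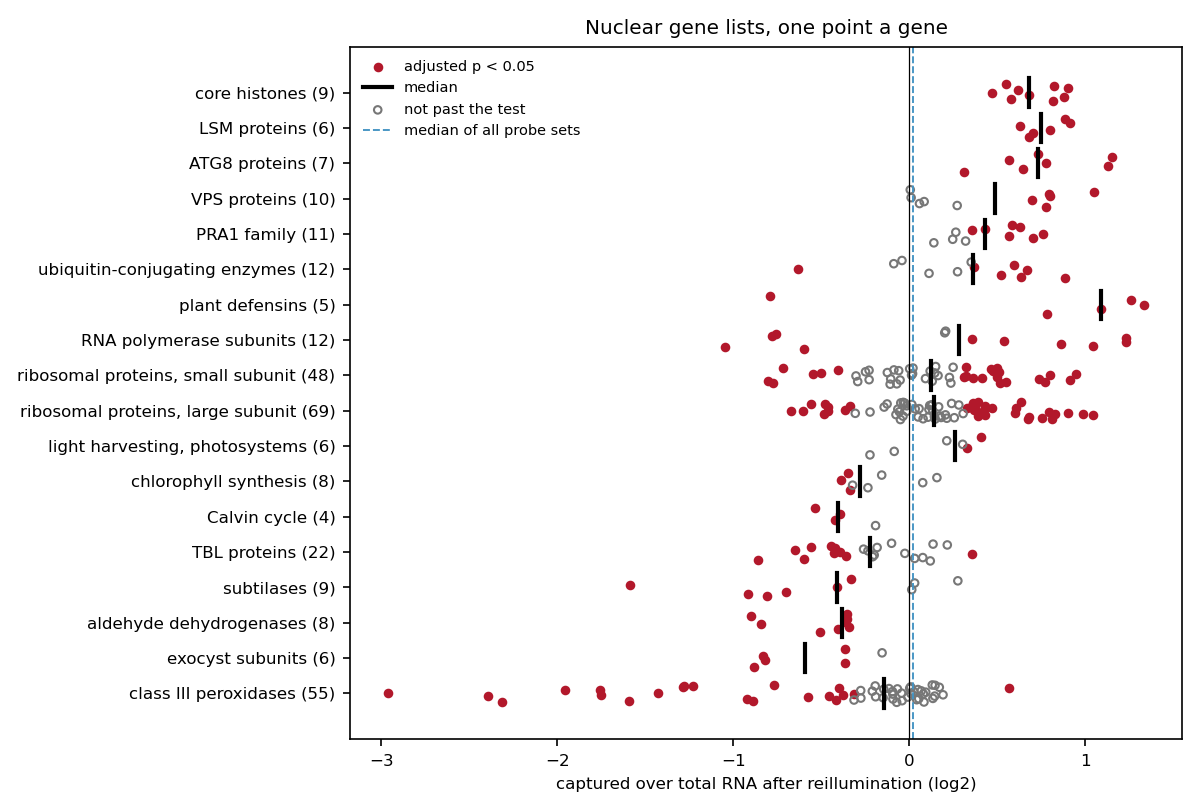
Captured over total ratio after reillumination (log2) of the measured members of 18 nuclear gene lists, with the number of members in brackets. A filled red point is a gene with an adjusted p under 0.05, an open point one that did not pass, the black bar is the list's median and the dashed line the median of all probe sets, 0.02. All members of the histone, LSM and ATG8 lists lie right of 0, all aldehyde dehydrogenases lie left of it, and the RNA polymerase and ribosomal protein lists lie on both sides.

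mRNAs of cytosolic ribosomal proteins, placed by locus since the gene table gives most of them no symbol, lay on both sides. Of 117 measured, 41 were higher and 15 lower in captured RNA, with a median of 0.13 (0.09 and 0.20 in the extracts). Of the 117, 102 had a level of at least log2 7, and among all nuclear protein-coding genes of that level 33.6% were higher and 22.2% lower, so the count of higher calls is near the background. The small subunit had 17 higher and 6 lower of 48, from -0.80 to 0.95, and the large subunit 24 higher and 9 lower of 69, from -0.67 to 1.04. The acidic stalk proteins had 4 higher and 1 lower of 14, and the nuclear-encoded ribosomal proteins of the plastid 2 higher and 1 lower of 7. Relative to their span class the 117 genes had a median of -0.28. Calls were 23 higher and 8 lower without reillumination replicate 1, 20 and 14 without replicate 2, and 30 and 22 with the arrays centred. A shorter list of 20 ribosomal protein loci, 7 of them measured and 2 higher and 4 lower, had a median of -0.50, so the sign depends on which loci are counted. Of 4 measured elongation and initiation factors 2 were lower and none was higher. For mRNAs with a conserved upstream open reading frame, a short reading frame ahead of the main frame that can limit its translation, 1 of 13 was higher (bZIP44, 0.37 ± 0.11, a call that was lost with the arrays centred) and 1 lower (AT3G57170, -1.14 ± 0.13). Their median was 0.04, and -0.05 with the arrays centred.

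Few nuclear mRNAs of photosynthesis were measured, and their ratios were small. Of 6 measured light harvesting and photosystem genes, 2 were higher: PSBY, a small photosystem II subunit, had 12.90 and 12.74 in captured against 12.46 and 12.37 in total RNA (0.41 ± 0.11, adjusted p = 0.0093), and PSAE-1 of photosystem I had a ratio of 0.33 ± 0.11 (adjusted p = 0.029). The call of PSAE-1 was lost with the arrays centred. The antenna protein gene LHCB4.1 had a ratio of -0.22 ± 0.12 (adjusted p = 0.16). Of 4 Calvin cycle genes 3 were lower: SBPASE, sedoheptulose-bisphosphatase, had 10.63 and 10.49 in captured against 11.02 and 11.18 in total RNA (-0.54 ± 0.12, adjusted p = 0.0038), PRK, phosphoribulokinase, had -0.42 ± 0.13, and RCA, Rubisco activase, had -0.39 ± 0.12. Of 8 chlorophyll synthesis genes 3 were lower by 0.34 to 0.39, which were HEMB1, PORB and CHLI2, and none was higher. These small ratios needed both extracts: without reillumination replicate 1 the photosystem list had 0 called higher, and the Calvin cycle and chlorophyll lists had 1 called lower each, and without replicate 2 all 3 lists had 0.

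Among genes that respond to darkness or sugar shortage, 3 of 8 were lower and 1 higher. MCCA, a subunit of the leucine-degrading enzyme methylcrotonyl-CoA carboxylase, had 10.28 and 10.17 in captured against 11.10 and 11.45 in total RNA (-1.05 ± 0.13, adjusted p = 3.2e-05), and its partner MCCB had -0.53 ± 0.11. PPDK, pyruvate, orthophosphate dikinase, had 9.97 and 10.01 in captured against 10.53 and 10.68 in total RNA (-0.62 ± 0.11, adjusted p = 5.9e-04). Relative to their span class, MCCA had -0.78, MCCB -0.26 and PPDK, whose gene spans 6365 bp, -0.003. Of 3 clock genes, GI, a large clock protein of the evening, had 7.54 and 7.58 in captured against 8.32 and 8.42 in total RNA (-0.81 ± 0.11, adjusted p = 9.7e-05), and COR27, a cold-regulated gene tied to the clock, had 8.11 and 8.13 against 7.29 and 7.44 (0.76 ± 0.14, adjusted p = 9.2e-04). The other clock gene, AT4G33980, was higher too (0.61 ± 0.12, adjusted p = 0.0010). Relative to their span class, GI, which spans 6040 bp, had -0.20, COR27 0.73 and AT4G33980 0.59. Of 5 light signalling genes 4 were higher, among them the homeodomain gene HAT2 (0.56 ± 0.12, adjusted p = 0.0020) and the dim HYH, a bZIP factor of light signalling (0.31 ± 0.11, adjusted p = 0.038), whose call was lost with the arrays centred.

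In other families named by symbol, all 4 late embryogenesis abundant proteins were higher, with a median of 1.23, and 4 of 7 calmodulin-like proteins were higher and none lower, with a median of 0.76. Genes of these 2 lists had median spans of 972.5 and 981 bp. Relative to their span class the medians were 0.51 and 0.03. In each of the 2 lists, 2 genes had a level of at least log2 7. The remaining families are read against the 17.2% of all probe sets called higher and the 18.6% called lower, and a share near these is no result about the family. Calls were lower only for 3 lower of 8 cellulose synthase-like proteins, 9 lower of 20 beta-glucosidases, 8 lower of 26 cytochrome P450s, 4 lower of 47 UDP-glucosyltransferases, 3 lower of 12 ubiquitin-specific proteases, 2 lower of 10 alpha-expansins, 1 lower of 9 XTH enzymes and 1 lower of 5 beta-tubulins. They were higher only for 5 of 14 bZIP factors, 5 of 9 U-box ubiquitin ligases and 2 of 6 WRKY factors, and for 2 of 3 measured heat shock genes of a list by locus. Tau glutathione S-transferases had 4 higher and 3 lower of 11, RALF-like peptides 4 higher and 1 lower of 10, and AGAMOUS-like factors 2 higher and 1 lower of 40. None of 14 SWEET sugar transporters was called.

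Most measured root markers were lower in captured RNA. Of the 3 measured genes in the root hair list, none reached a level of log2 7. The expansins EXPA7, with 4.67 and 4.69 in captured against 5.57 and 5.87 in total RNA (-1.04 ± 0.14, adjusted p = 5.7e-05), and EXPA18 (-1.10 ± 0.17, adjusted p = 2.2e-04) were lower. These are also the 2 alpha-expansins counted as lower above. LBD16, also in the root hair list, was higher (0.53 ± 0.13, adjusted p = 0.0044), so the members of this list did not share a direction. Of 4 root endodermis and cortex markers 3 were lower, from -1.07 (AT1G62500) and -0.76 (AT1G09750) to -0.32 ± 0.11 for PYK10, which had 13.01 and 12.91 in captured against 13.34 and 13.23 in total RNA. The call of PYK10 was lost without either extract. The list median was -0.54. Of 55 measured loci of the class III peroxidase family, placed by locus from background knowledge and added after values were seen, 20 were lower and 1 was higher, against 18.6% and 17.2% of all probe sets. Their median was -0.14, and 17 of the 55 had levels of at least log2 7. The lower loci include AT4G26010, AT3G01190 and AT1G30870, which were already named above among the largest falls of nuclear genes. The count of lower peroxidases is therefore not independent of those falls. Markers of other cell types showed fewer calls: 0 of 3 for guard cells, 1 higher of 2 for phloem companion cells, 0 of 1 for xylem and 1 higher of 3 for meristems. Mesophyll and epidermis markers had no probe set of their own. The part of cell types in which the promoter is less active was not tested.

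The ratios after reillumination were next set against those in darkness, which asks whether 10 min of light changed the loading of particular mRNAs. No array is shared between the conditions, but all use 1 estimate of the spread. In darkness 3768 probe sets (16.6%) were higher and 3568 (15.7%) lower in captured RNA, 32.3% of those tested in all. Of the 3906 higher after reillumination, 2483 were also higher in darkness (63.6% of the first list and 65.9% of the second), and of the 4220 lower, 2271 were also lower (53.8% and 63.6%). The difference itself was called for 1002 probe sets (4.41%), with 661 (2.91%) having a higher and 341 (1.5%) a lower ratio after reillumination than in darkness. With the arrays centred the numbers were 577 and 476, which lowers the share of higher calls from 66.0% to 54.8%. The counts rest largely on dark replicate 2, since without it 42 were higher and 2 lower, while without dark replicate 1 they were 516 and 295. Without reillumination replicate 2 they were 139 and 15.

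The 661 probe sets had a median ratio of 0.27 after reillumination, -0.60 in darkness and 0.20 in light, and 478 of them were called lower in captured RNA in darkness. Their captured signal was higher by a median of 0.74 after reillumination than in darkness, while total RNA differed by -0.09. In the 341 the medians were -0.67 after reillumination, 0.03 in darkness and -0.60 in light. These medians describe probe sets chosen for this difference.

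Among the 13349 genes with a named probe set of their own, the 5 largest called differences upward were in AT3G62190, AT5G52960, AT5G56100, AT3G14595 and AT5G64180, for which the gene table gives no name. AT3G62190 had ratios of -0.38 and -0.12 after reillumination against -2.07 and -2.14 in darkness (a difference of 1.86 ± 0.18, adjusted p = 5.7e-04). Its captured signal was 7.75 and 7.87 after reillumination against 6.17 and 6.34 in darkness, and total RNA was 8.13 and 7.99 against 8.24 and 8.48. Among the same genes the 5 largest downward were AT1G78410, AT1G30600 and the chloroplast transcripts psbT, psaA and psbB. For psbT, a small photosystem II subunit, the ratios were -5.78 and -5.04 after reillumination against -3.84 and -3.72 in darkness (-1.63 ± 0.26, adjusted p = 0.0049). Its captured signal was 4.27 and 4.09 after reillumination, near the lower quartile of the array, against 5.82 and 5.88 in darkness. For psbB, the CP47 protein of the photosystem II core, captured signals of 6.43 and 5.97 after reillumination stood against 7.46 and 7.62 in darkness, and the ratio differed by -1.19 ± 0.17 (adjusted p = 0.0029). The difference was called downward for 9 of the 69 chloroplast transcripts and upward for none, with a median of -0.47 over the 69 beside -0.03 over all probe sets. Of the 6 ATP synthase transcripts of the chloroplast, 3 were among the 9.

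A pair of chlorophyll synthesis genes was not called after reillumination, while their ratio differed from that in darkness. CHLM, magnesium protoporphyrin methyltransferase, had ratios of -0.29 and -0.18 after reillumination against -1.02 and -1.31 in darkness (a difference of 0.93 ± 0.16, adjusted p = 0.0078). LIL3:2, a light-harvesting-like protein of chlorophyll synthesis, had -0.19 and -0.12 after reillumination against -1.23 and -1.06 in darkness (0.99 ± 0.16, adjusted p = 0.0052). They are 2 of the 8 measured genes of that list, and the other 6 had no call. LSM3B had a ratio of 0.63 after reillumination against -0.60 in darkness (1.23 ± 0.19, adjusted p = 0.0050), and LSM6B 0.88 against 0.07 (0.81 ± 0.16, adjusted p = 0.015). COR27 had 0.76 after reillumination against -0.26 in darkness (1.01 ± 0.20, adjusted p = 0.016). SDH1-1 had -1.21 against -0.24 (-0.97 ± 0.18, adjusted p = 0.011). Of the 117 cytosolic ribosomal protein genes 5 had a higher and none a lower ratio, near the 2.91% of all probe sets called higher, with a median difference of 0.18, and of 14 stalk proteins 3 were higher. GI and PPDK differed by -0.55 ± 0.16 and -0.52 ± 0.16, which did not pass (adjusted p = 0.068 and 0.073). Of 25 named genes whose difference from darkness passed, 6 still passed without dark replicate 2, which were AT3G62190, AT5G52960, AT5G56100, AT3G14595, AT5G64180 and psbB. The calls of CHLM, LIL3:2, LSM3B, LSM6B, COR27, SDH1-1 and the other named chloroplast transcripts were thus lost without that extract. Without reillumination replicate 2, 10 still passed, LIL3:2 and LSM3B among them.

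**Figure D5:**
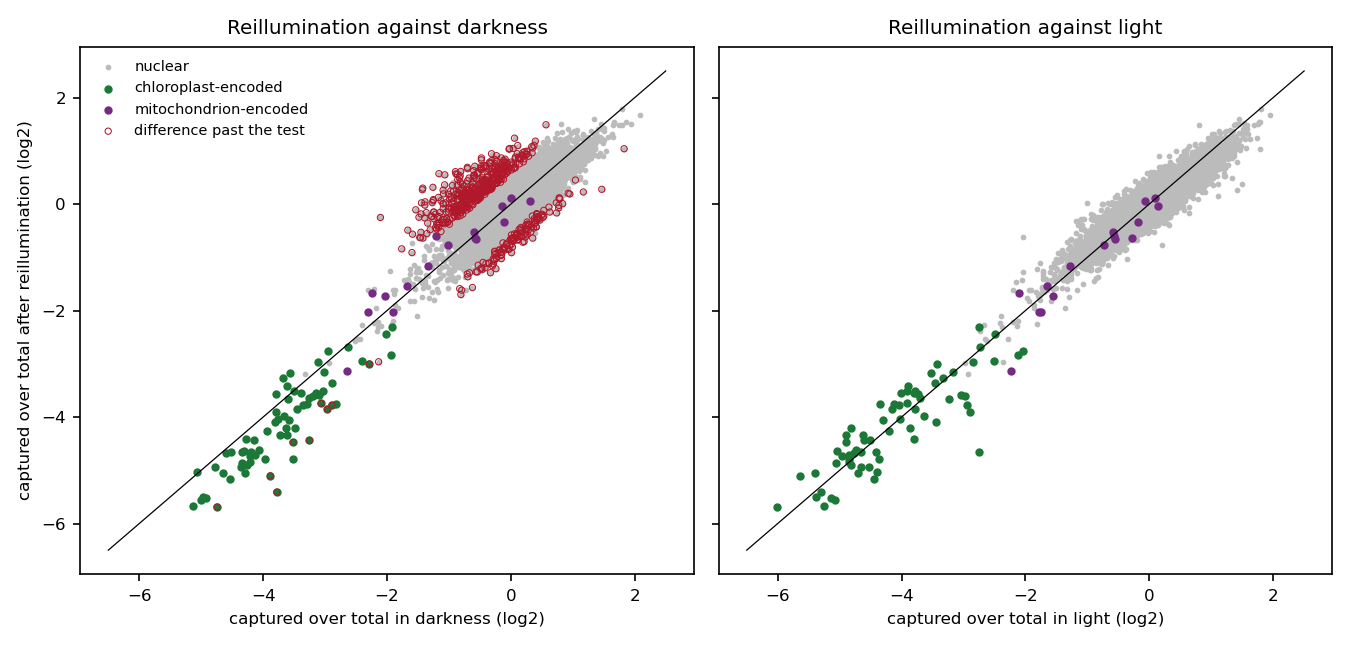
Captured over total ratio after reillumination (log2, vertical axis) against that in darkness (left) and in light (right), one point a gene, for 13349 genes. Green points are chloroplast-encoded, purple points mitochondrion-encoded, red circles mark genes whose difference between the conditions passed the test, and the line marks equal ratios. Circles lie on both sides of the line against darkness, and there are none against light.

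Against continued light, no probe set passed the test (0.0%), in limma's fit with an estimate of the spread shared by all conditions, where the smallest adjusted p was 0.13. At an unadjusted p under 0.05, 1159 probe sets were found, beside 1137 that chance gives among 22746. Leaving out either dark extract gave 1 call. Of the 3906 probe sets higher after reillumination 3234 were also higher in light (82.8% of the first list and 74.7% of the second), and of the 4220 lower 3727 were also lower (88.3% and 75.7%). In light 9253 probe sets (40.7%) were called in all, 4331 (19.0%) higher and 4922 (21.6%) lower. Across the 4783 bright nuclear genes the mean ratios of 2 extracts correlated at r = 0.96 between reillumination and light and at 0.74 between reillumination and darkness. Between the single extracts of a condition r was 0.92 after reillumination, 0.88 in darkness and 0.92 in light. A mean of 2 extracts is less noisy than 1 extract, so these 2 kinds of value cannot be compared directly. All are correlations across genes, which are not independent replicates. CHLM had a ratio of -0.24 in both reillumination and light, and the median difference of the 69 chloroplast transcripts from light was 0.04. With 2 extracts a condition, the median standard error of such a difference was 0.17 on the log2 scale, so small differences would not be seen.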

How the data were processed

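Labelled RNA was hybridized to Affymetrix ATH1 arrays. The deposited values are log2 signals, 1 per probe set, made by the authors with RMA and affy per the submitters' processing notes, which state no version. RMA subtracts background, equalises the distributions of the arrays and summarises the probes of a set, so a change of all transcripts together would not show. Arrays have no counting depth, and precision is set by their number: standard errors of the ratio had a median of 0.12.

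Captured minus total log2 values of each of the 6 extracts were fitted with limma 3.58.1 in R 4.3.3 as 3 condition means with empirical Bayes moderation (3 residual and 10.89 prior degrees of freedom), two-sided. No filter on level was set. The extract is the pair: per the labels' protocols both RNA pools come from 1 clarified extract, and deviations of same-numbered captured and total arrays from their group means correlated at 0.46 after reillumination, 0.49 in darkness and 0.30 in light.

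Of 22810 probe sets 64 controls were set aside. The platform annotation pairs 13513 of the rest (59.4%) with 1 gene, 503 with several genes and leaves 8730 unlisted. The TAIR10.1 gene table named 13507, which gave 13264 nuclear, 69 chloroplast and 16 mitochondrial genes, each by its probe set least open to cross-hybridization. Named genes are the 10 largest rises and falls among nuclear genes with a level of at least log2 7, the 4 largest organelle changes each, up to 4 members of each list, the 5 largest differences from darkness each way, and PPDK, GI, HYH, CHLM, LIL3:2 and WRKY22. Named outside this rule, after their values were seen, were psbA, rbcL, ndhC, matR, ccmFN2, nad2, nad7, HTB1, HTB4, LSM3B, ATG8B, NRPA1, NRPC1, NRPC2, SEC5B and LHCB4.1. Members and lists were chosen with earlier results of these data known; 26 lists were written by locus, of which 6 had no measured member, and 5 lists by locus and 28 by symbol were added after values were seen. Alternatives were the fit without pairing, with replicate number as a block, on the reillumination extracts alone, a level filter, centred arrays, an intensity trend, unique probe sets and leaving out each extract. Gene span replaced a planned comparison with protein length, which was not run, and was chosen after seeing the data. The fit was tested on simulated data. Figures used Python 3.11.15 and matplotlib 3.10.9.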

Additional observations from a re-analysis of the deposited data

Results flagged for a closer look

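The captured over total ratio differed between reillumination and darkness, by a test of the difference itself, in 25 of the named genes. Over all probe sets 4.41% were called. The 5 largest differences each way were named because they passed, so the count of 25 is not a rate. Most of the 25 lost their call without dark replicate 2. Differences are reillumination minus darkness on the log2 scale. The ratio was higher after reillumination in AT3G62190 (1.86), AT5G52960 (1.73), AT5G56100 (1.72), AT3G14595 (1.70), AT5G64180 (1.62), LSM3B (1.23), COR27 (1.01), LIL3:2 (0.99), CHLM (0.93), UBC28 (0.83), AT4G00810 (0.83), LSM6B (0.81), AT2G37600 (0.72), AT5G19510 (0.70) and AGL26 (0.68). It was lower after reillumination in psbT (-1.63), psaA (-1.22), AT1G78410 (-1.19), psbB (-1.19), AT1G30600 (-0.99), SDH1-1 (-0.97), rpl22 (-0.94), AT4G26010 (-0.83), SBT4.12 (-0.76) and AT1G09750 (-0.69). Genes of 1 condition can differ between its extracts: AT5G56100 had dark ratios of -0.95 in replicate 1 and -1.89 in replicate 2, against 0.19 and 0.40 after reillumination.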

How the results depend on the processing

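Leaving out an extract leaves its condition with 1, which is then assumed to vary like the others. Over these fits, calls after reillumination ranged from 2369 to 3916 higher and from 2677 to 4264 lower, calls in darkness from 2096 to 3765 higher and from 1949 to 3554 lower, and calls in light from 2800 to 4329 higher. Ratios above darkness ranged from 42 to 602 and ratios below it from 2 to 295, and against light from 0 to 1 were higher. Without pairing (no replicate block), 193 ratios were higher and 33 lower than in darkness. With replicate number as the replicate block, 195 of the 198 named genes called after reillumination and 24 of the 25 differences from darkness were kept. Ratios lower than in darkness numbered 718 with probe sets under a mean of log2 6 left out and 608 with an intensity trend. The cause was not tested. The median of cytosolic ribosomal proteins was 0.042 with arrays centred. That of mitochondrial transcripts was -2.03 with the level filter, which left 4 of 16, and -1.10 with unique probe sets alone, which left 12. The chloroplast median ranged from -4.25 to -4.05 over the extracts. The gap between the shortest and longest class of gene span was 0.54 over all levels, against 1.34 at log2 7 and above, and ranged from 1.29 to 1.41 over the extracts. Of the 198 named genes, 125 kept their call under every alternative run and none reversed. 163 did without pairing, 150 without reillumination replicate 1 and 153 without reillumination replicate 2. Of the 25 differences from darkness, 5 were kept under every alternative, 11 without pairing, and none reversed. The alternatives for protein length were not run.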
